A study of Mus musculus with 12 samples.

Results

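The Hox genes encode homeodomain transcription factors and lie in 4 clusters of the mouse genome. They were taken here as every gene of the deposited table whose name begins with Hox, a cluster letter a to d and a number, antisense transcripts such as Hoxa11os included. This gave 37 of the 23586 genes, of which 33 are protein-coding and 4 are antisense transcripts. The Hoxa cluster held 12 of them (chromosome 6), the Hoxb cluster 10 (GRCm38 chromosome 11, 96271457 to 96354691), the Hoxc cluster 9 (chromosome 15, 102921103 to 103036852) and the Hoxd cluster 6 (chromosome 2, 74691924 to 74748442). Other Hox genes were not analysed here. To be tested, a gene needed 3 or more libraries at 10 normalized counts or above, and 30 of the 37 reached this: all of the Hoxa genes in the table except Hoxa13, all of the Hoxb genes except Hoxb8 and Hoxb9, all of the Hoxc genes except Hoxc12, and Hoxd8, Hoxd9 and the antisense Hoxd3os1. Hoxd3, Hoxd4 and Hoxd10 did not.

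The libraries came from cultured mouse muscle stem cells, the progenitors that repair skeletal muscle, and 4 groups of 3 were compared: GFP-negative cells labelled SIX2, GFP-negative cells labelled control, GFP-positive cells labelled SIX2 and GFP-positive cells labelled control. Every group carried the Pax3nLacZ-IRES-GFP genotype, an allele that reports Pax3 by GFP, and the cells had been sorted by that GFP before culture in 20% fetal calf serum with 4 ng/mL basic FGF. The SIX2 label stands for 2 µg of a pCR3 plasmid with the mouse Six2 cDNA, which encodes a homeodomain protein needed in kidney progenitors, and the control label for the same amount of empty pCR3, both delivered with Lipofectamine. The RNA of at least 50000 cells was pooled in each library, and the labels do not say from which muscles or animals the cells came or whether replicates were separate cultures. The p-values thus measure the spread between these libraries, which may be technical. Reads per library lay between 12438885 and 47299937, and a single read was worth 0.553 to 2.14 normalized counts.

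Within a cluster, the genes at one end (low paralogue numbers) are used towards the head of the embryo and those at the other end (high numbers) towards the tail and in the limbs, an arrangement known as collinearity. Genes of the same number in different clusters are paralogues with related roles, and the groups with the highest numbers pattern the lumbar and sacral trunk and the limb segments. Adult cells of connective tissue and muscle, satellite cells among them, are known to keep a Hox pattern that reflects the place in the body they came from.

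Levels of different genes were compared per kilobase (kb) of merged exons, as means of 3 libraries in normalized counts per kb. In the libraries labelled SIX2 the highest levels were those of Hoxa10, at 168 in GFP-negative and 156 in GFP-positive cells, followed by Hoxc10 at 109.7 and 118. In the libraries labelled control the order began differently: Hoxc6 (146) led in GFP-negative and Hoxa7 (159) in GFP-positive cells, while Hoxa10 stood at 78.3 and 96.9 and Hoxc10 at 42.5 and 46.4 normalized counts per kb. The Hoxb cluster was represented mainly by Hoxb2, Hoxb5, Hoxb6 and Hoxb7, with Hoxb6 its highest coding gene per kb in each group except GFP-negative cells labelled SIX2, where Hoxb2 (55.5) exceeded Hoxb6 (46.9). In the Hoxd cluster Hoxd8 was the highest gene, between 47.8 and 56.7 normalized counts per kb in the 4 group means, and Hoxd3 and Hoxd4 stayed under 2.

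**Figure D1:**
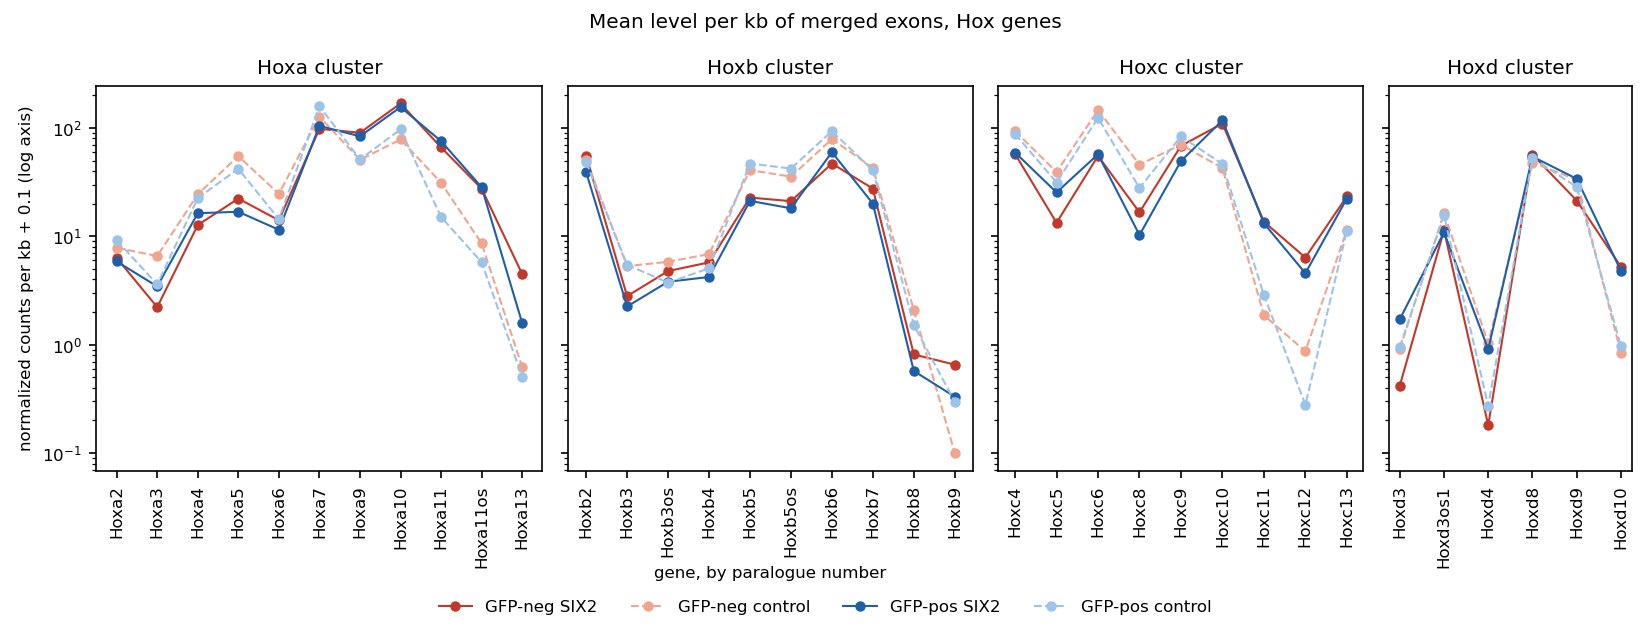
Mean level of Hox genes and antisense transcripts, in normalized counts per kb of merged exons on a log axis (0.1 added), by cluster and paralogue number, in the 4 groups of 3 libraries. The lines of the SIX2-labelled groups (solid) lie above the control-labelled ones (dashed) at Hoxa9, Hoxa10, Hoxa11 and Hoxa13 and Hoxc10, Hoxc11, Hoxc12 and Hoxc13 and mostly below them at lower paralogue numbers.

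The labels were checked first. Six2 held 22.8, 23.7 and 19.2 normalized counts in GFP-negative cells labelled SIX2 against 4.28, 15.9 and 24.4 in those labelled control, and 28.6, 23.4 and 6.51 with SIX2 against 5.35, 13.3 and 3.37 with control in GFP-positive cells. Neither difference passed the test (adjusted p = 0.421 and 0.209), so Six2 cannot serve to check which plasmid a library received, and every direction given here is a direction between labels. Pax3 averaged 10.4 and 72.2 normalized counts in the GFP-positive groups labelled SIX2 and control, against 16.5 and 71.4 in the GFP-negative ones, and did not mark the sort in either label. Between plasmid labels, Pax3 passed the test as lower with SIX2 in both populations. All 9 markers of muscle stem cells and myoblasts were present, and their summed level lay between 220532 and 336185 normalized counts in every library. The sum was lower with the SIX2 label in both populations, but the 9 markers did not fall as a set. In GFP-negative cells 3 passed the test as higher and 4 as lower, and in GFP-positive cells 3 as higher and 2 as lower. Their median log2 differences were −0.16 and −0.08. Of all tested genes, 27.9% and 23.3% passed. Of the 8 fibro-adipogenic markers 6 were in the table, with Dcn at 0 in 3 of the 4 groups and summed levels of 3507 to 3870 in GFP-negative cells labelled SIX2 against 1462 to 2570 with the control label, and 3548 to 4023 against 1298 to 1977 in GFP-positive cells. Of the 4 Schwann cell markers 3 were in the table, and their sum was 195 to 245 with SIX2 against 396 to 502 with control in GFP-negative cells and 223 to 243 against 469 to 581 in GFP-positive cells. Pericyte and smooth muscle markers, 4 of 5 in the table, summed to 1071 to 1581 with SIX2 against 1630 to 2193 with control in GFP-negative cells, and 1111 to 1612 against 1860 to 2026 in GFP-positive cells. Of the 3 tested pericyte and smooth muscle markers, 1 passed as higher and 1 as lower in each population. Of the 4 tested fibro-adipogenic markers, 2 passed as higher and 0 as lower in each. Only 2 Schwann cell markers were tested, of which 1 passed as lower in each population, so their sum does not show a shift of the whole list. The sums of endothelial markers stayed at or under 41.3 and those of haematopoietic markers at or under 111, and the sums of tendon markers overlapped between labels in GFP-positive cells only. The part of these cell types in the Hox differences was not tested.

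The comparison of plasmid labels sets libraries labelled SIX2 against those labelled control in each sorted population. Since Six2 itself did not pass the test, these differences cannot be assigned to overexpressed SIX2. With the SIX2 label, Hoxa9, Hoxa10, Hoxa11, its antisense transcript Hoxa11os and Hoxc10 rose in both populations, by 0.70 to 2.30 on the log2 scale. Hoxa5, Hoxa7, Hoxb5, Hoxb6, Hoxc4, Hoxc6 and Hoxc8 fell in both, with log2 differences of −1.46 to −0.38. These are bulk libraries, so a change in the level per cell and a change in the share of cells that express a gene cannot be told apart.

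In GFP-negative cells 16 of the 30 tested genes passed the test (limma, adjusted p under 0.05 over all 14580 genes tested), 6 higher and 10 lower, where 27.9% of all tested genes did so, 13.6% higher and 14.3% lower. In GFP-positive cells 14 of 30 passed, 5 higher and 9 lower, against 23.3% of all tested genes, 12.1% higher and 11.2% lower. The median log2 difference was −0.54 over the Hox genes and 0.00 over all genes in GFP-negative cells, and −0.46 and −0.01 in GFP-positive cells. The same direction was called in both populations for 13 of 30 Hox genes (43.3%), compared with 13.7% of all tested genes. Of these, 5 were higher (7.42% of all genes) and 8 lower (6.31%). No Hox gene was called in opposite directions (0.0686% of all genes). The libraries of the labels did not overlap at all for 20 of the 30 in GFP-negative cells (46.3% of all tested genes) and for 17 in GFP-positive cells (36.8%). The 2 comparisons share no library, but all 12 libraries were fitted together. Both tests of a gene thus use the same estimate of the spread and are not independent. Hoxc11 reached the threshold for testing only through libraries labelled SIX2, so it had to differ to be tested. Without it the counts were 5 higher and 10 lower in GFP-negative cells and 5 higher and 9 lower in GFP-positive cells. The count in GFP-negative cells rested in part on single libraries: it was 9 without replicate 2 and 10 without replicate 3 of the GFP-negative SIX2 group.

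**Figure D2:**
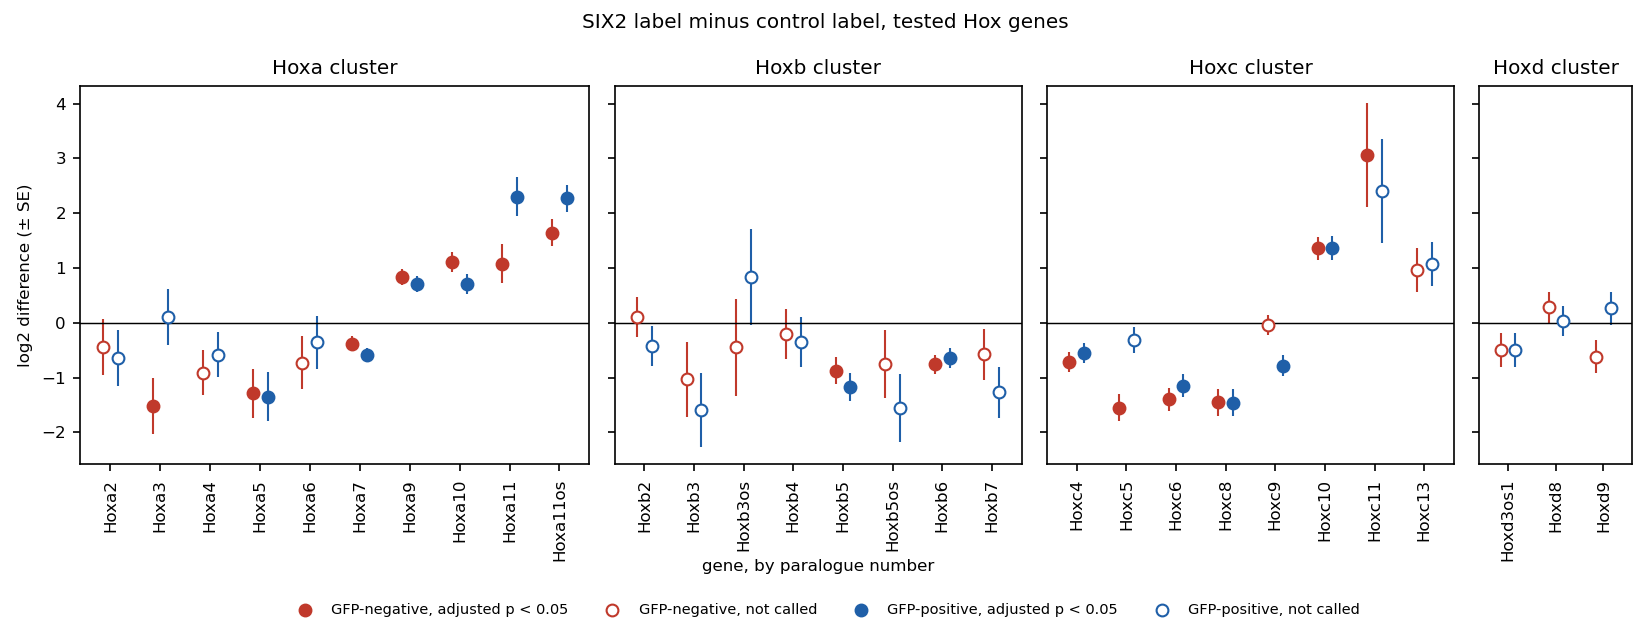
Log2 difference between SIX2 and control labels (± SE, 3 libraries a group) of tested Hox genes, by cluster and paralogue number, in GFP-negative (red) and GFP-positive (blue) cells. Filled points passed the test, and those above 0 are Hoxa9, Hoxa10, Hoxa11, Hoxa11os and Hoxc10 in both populations and Hoxc11 in GFP-negative cells.

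Counts by position and by cluster stand beside the shares of all tested genes. Of these, 13.6% were called higher and 14.3% lower in GFP-negative cells, and 12.1% and 11.2% in GFP-positive cells. By position along the clusters, 9 genes with paralogue numbers 9 to 13 were tested, Hoxc11 included. Of the 9, 6 rose and none fell in GFP-negative cells, while 5 rose and 1 (Hoxc9) fell in GFP-positive cells. Hoxc11 could be tested only through its libraries labelled SIX2. Without it, 8 genes remain, of which 5 rose in each population, none fell in GFP-negative and 1 fell in GFP-positive cells, with median log2 differences of 1.02 and 0.89. The 5 include both Hoxa11 and its antisense transcript Hoxa11os. These share 800 exonic bases, where a read could come from either. Of the 14 tested genes with numbers 4 to 8, none rose and 8 fell in GFP-negative and 7 in GFP-positive cells, with medians of −0.76 and −0.62. Of the 7 with numbers 1 to 3, 2 fell in GFP-negative cells, Hoxa3 among them, and 1 in GFP-positive cells, and none rose. With 28.6% and 14.3% called, groups 1 to 3 lay near or below the 27.9% and 23.3% of all tested genes. By cluster, Hoxa had 4 higher in each population and 4 lower in GFP-negative and 3 in GFP-positive cells. The Hoxb cluster had 2 lower (Hoxb5 and Hoxb6) and none higher in each population. Hoxc had 2 higher (Hoxc10 and Hoxc11) in GFP-negative and 1 (Hoxc10) in GFP-positive cells, and 4 lower in each. Without Hoxc11 it had 1 higher in each. None of the 3 tested Hoxd genes was called.

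The bases upstream of Hoxa11 and Hoxa5 are shown because these had the largest rise and the largest fall, averaged over both populations, among protein-coding Hox genes that were called in both populations and had a promoter window in the reference (RefSeq, GRCm38.p6). Each run is the 250 bases before the gene's start, 5′ to 3′ on the minus strand, from which both genes are read, with CpG dinucleotides in capitals. The Hoxa11 window lies at chr6:52245811-52246060 and the Hoxa5 window at chr6:52204588-52204837.
Hoxa11: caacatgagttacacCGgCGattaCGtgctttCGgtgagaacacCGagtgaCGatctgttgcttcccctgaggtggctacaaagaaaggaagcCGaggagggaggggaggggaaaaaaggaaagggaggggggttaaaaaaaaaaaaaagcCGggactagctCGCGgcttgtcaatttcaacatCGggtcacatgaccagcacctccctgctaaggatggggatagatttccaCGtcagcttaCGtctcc
Hoxa5: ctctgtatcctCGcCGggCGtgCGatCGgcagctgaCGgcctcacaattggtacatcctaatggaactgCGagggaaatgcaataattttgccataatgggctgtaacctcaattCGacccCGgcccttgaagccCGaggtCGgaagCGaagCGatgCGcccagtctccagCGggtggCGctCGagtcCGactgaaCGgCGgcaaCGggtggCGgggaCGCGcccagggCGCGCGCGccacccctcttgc
The Hoxa11 window holds 13 CpG dinucleotides and the Hoxa5 window 28, where the median of all 32851 windows of this length was 6 and that of the 21 windows found for 20 of the Hox genes was 13. The MEF3 motif, the site of SIX2 and its relatives in muscle genes, was searched as TCAGGTT on both strands and found in 3.49% of all windows and in 1 of the 21 Hox windows, that of Hoxd3os1. A motif bound by Hox and Pbx proteins together, searched as TGATNNAT on both strands, was in 7.68% of all windows and in 2 Hox windows, those of Hoxa2 and Hoxb8. Neither was found in the windows printed. A match or its lack describes these letters in this window only.

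The genes that rose belong to paralogue groups known from limb and lumbar patterning, but not every tested gene of paralogue groups 9 to 13 rose. Hoxc9 fell in GFP-positive cells, and Hoxc13 and Hoxd9 were called in neither population. Hoxa9, a gene of posterior trunk identity that is also required in blood progenitors, held 545, 520.4 and 444 normalized counts in the 3 GFP-negative libraries labelled SIX2 against 244, 292 and 314 in those labelled control. In GFP-positive cells Hoxa9 held 454, 524 and 423 with SIX2 against 281, 330.4 and 246 with control. Libraries of the SIX2 label were all above those of the control label in both populations, with log2 differences of 0.83 ± 0.15 (SE; adjusted p = 9.51e-04) and 0.71 ± 0.15 (0.00325). Hoxa10, known from patterning of the proximal limb and the uterus, held 496, 490.1 and 665 with SIX2 against 195, 283 and 289.8 with control in GFP-negative cells. Its GFP-positive values were 531, 497 and 501 with the SIX2 label and 358, 351 and 242 with the control label. Again the labels did not overlap, at log2 differences of 1.11 ± 0.19 (adjusted p = 6.75e-04) and 0.70 ± 0.19 (0.0144), though the call in GFP-positive cells was lost without replicate 3 of the control label (adjusted p = 0.0598).

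Hoxa11, which patterns the middle segment of the limb (forearm and lower leg) and the kidney, held 123, 160.1 and 171 normalized counts with the SIX2 label against 60.0, 67.4 and 86.3 with the control label in GFP-negative cells. In GFP-positive cells it held 241, 179 and 97.7 with SIX2 against 19.1, 49.3 and 34.6 with control, a wider spread within each group and still no overlap. The log2 differences were 1.08 ± 0.36 (adjusted p = 0.0379) and 2.30 ± 0.36 (4.73e-04). In GFP-negative cells the call was lost without replicate 2 or 3 of the SIX2 label or replicate 1 or 2 of the control label (adjusted p up to 0.115), and with the replicate number as a block, quantile scaling or no filter on low values (0.0595 at most). Hoxc10, a gene of hindlimb and lumbar motor neuron identity, held 191, 238 and 198 with SIX2 against 79.3, 92.0 and 72.2 with control in GFP-negative cells. GFP-positive cells had 239, 242 and 192 with SIX2 against 88.0, 63.6 and 114 with control. Its log2 difference was 1.36 in both populations (SE 0.21; adjusted p = 4.21e-04 and 5.01e-04) and stayed called without any single library.

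Hoxc11, a paralogue of Hoxa11 used in the hindlimb, was low: 18.6, 39.5 and 24.1 normalized counts with SIX2 against 0, 7.93 and 2.81 with control in GFP-negative cells and 16.1, 48.7 and 14.7 with SIX2 against 8.41, 0 and 8.44 with control in GFP-positive cells. Labels did not overlap in either population, but the libraries labelled SIX2 ranged from 14.7 to 48.7 in GFP-positive cells, and only the GFP-negative difference passed the test (log2 3.06 ± 0.94, adjusted p = 0.0273, against 2.41 ± 0.94, 0.0836). That call was lost without replicate 2 or 3 of the SIX2 label or replicate 1 or 3 of the control label (adjusted p up to 0.115). A call in GFP-positive cells was made by DESeq2, with a pseudocount of 5 and with library weights. Hoxc13, known for its role in hair and nails, had log2 differences of 0.96 ± 0.40 and 1.07 ± 0.40 without passing (adjusted p = 0.0890 and 0.0684), with means of 57.3 ± 20.7 normalized counts with SIX2 against 27.9 ± 5.39 with control in GFP-negative and 54.7 ± 12.1 with SIX2 against 27.4 ± 14.9 with control in GFP-positive cells (SD, n = 3). With the replicate block it passed in both (0.0466 and 0.0341).

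**Figure D3:**
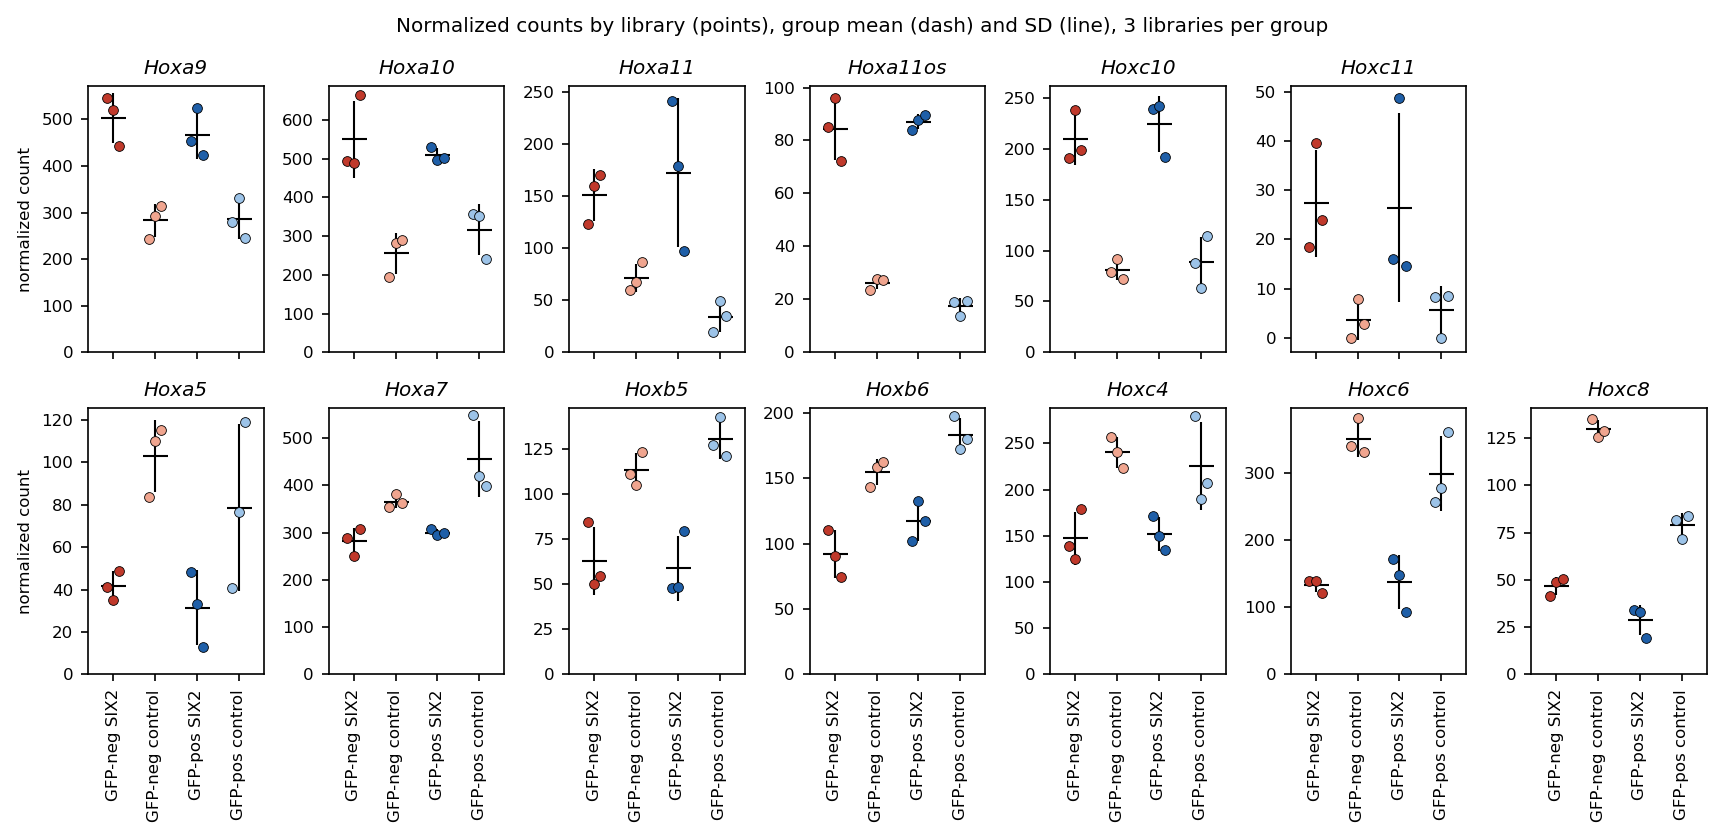
Normalized counts in each library (points) with the group mean (dash) and SD (line) for Hox genes called in the same direction in both populations and Hoxc11, 3 libraries a group, axes starting at or just under 0. In the upper row the SIX2-labelled points lie above the control-labelled ones of the same population, and in the lower row they lie below them, apart from Hoxa5 in GFP-positive cells, where 1 of each label overlap.

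Among the 8 genes that fell in both populations, Hoxc8 had the largest log2 difference in each. Its neighbour Hoxc6, which specifies brachial motor neurons and thoracic identity, held 139, 139 and 121 normalized counts with the SIX2 label against 341, 382 and 331 with the control label in GFP-negative cells. GFP-positive cells had 171, 148 and 92.8 with SIX2 against 256, 278 and 362 with control. The labels were fully separated, at log2 differences of −1.40 ± 0.21 (adjusted p = 2.84e-04) and −1.14 ± 0.21 (0.00148). Hoxc8, a gene of the brachial to thoracic trunk, held 41.4, 48.7 and 50.5 with SIX2 against 135, 125 and 129 with control in GFP-negative cells. In GFP-positive cells the values were 33.9, 33.1 and 19.5 with SIX2 against 81.8, 71.4 and 83.5 with control. Its log2 differences, −1.45 ± 0.24 (6.92e-04) and −1.46 ± 0.24 (8.22e-04), were nearly equal. Hoxc4, of the cervical trunk, held 139, 124 and 179 with SIX2 against 257, 240.2 and 223 with control in GFP-negative cells. In GFP-positive cells the values were 171, 150.04 and 135 with SIX2 against 280.0, 189.8 and 208 with control, and the labels did not overlap in either population, at smaller log2 differences of −0.72 ± 0.18 (0.0109) and −0.55 ± 0.18 (0.0448). The calls of Hoxc6 and Hoxc8 held without any single library. That of Hoxc4 in GFP-negative cells was lost without replicate 2 of the SIX2 label (adjusted p = 0.0523), and in GFP-positive cells in 8 of 12 such fits (up to 0.187): without replicate 2 or 3 of the SIX2 label, 1 or 3 of the control label, and 4 of the GFP-negative libraries. Under 6 of 15 other settings the GFP-positive call of Hoxc4 was lost too (0.142 at most).

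In the Hoxb cluster, Hoxb5, known from vagal and cervicothoracic identity, held 85.0, 50.1 and 54.7 normalized counts with the SIX2 label against 111, 105 and 124 with the control label in GFP-negative cells. Values in GFP-positive cells were 48.2, 48.7 and 79.8 with SIX2 against 128, 143 and 121 with control. Hoxb6, a thoracic gene also active in the early hindlimb field, held 111, 90.9 and 74.6 with SIX2 against 144, 159 and 162 with control in GFP-negative cells. The GFP-positive values were 102, 133 and 117 with SIX2 against 197, 173 and 179.7 with control. Both genes were lower in every library of the SIX2 label, Hoxb5 by log2 differences of −0.87 ± 0.25 (adjusted p = 0.0199) and −1.17 ± 0.25 (0.00438) and Hoxb6 by −0.76 ± 0.18 (0.00674) and −0.65 ± 0.18 (0.0194). Without replicate 2 or 3 of the SIX2 label or replicate 3 of the control label the Hoxb5 call in GFP-negative cells was lost (0.0819 at most), and so was that of Hoxb6 in GFP-positive cells without replicate 1 of either label (0.0692 at most).

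In the Hoxa cluster, Hoxa7, a thoracic gene, held 289, 251 and 307 normalized counts with SIX2 against 353, 381 and 363 with control in GFP-negative cells. Its values in GFP-positive cells were 307, 294 and 299.6 with SIX2 against 548, 421 and 399 with control. The labels did not overlap, at log2 differences of −0.38 ± 0.13 (adjusted p = 0.0478) and −0.59 ± 0.13 (0.00602). Hoxa5, required for the lung and the cervicothoracic skeleton, held 41.4, 34.9 and 48.7 with SIX2 against 83.5, 110.2 and 115 with control in GFP-negative cells. Its GFP-positive values, 48.2, 33.1 and 13 with the SIX2 label and 40.5, 76.4 and 119 with the control label, overlapped in 1 library of each, and the log2 differences were −1.28 ± 0.44 (0.0449) and −1.34 ± 0.44 (0.0420). These Hoxa5 calls were close to the threshold and were lost in 8 and 10 of 12 fits that leave out a library (adjusted p up to 0.126 and 0.162), among them every library of the GFP-negative groups. The GFP-negative call of Hoxa7 was lost in 10 of 12 (up to 0.171), in all but those without replicate 1 or 3 of the GFP-positive control group. Of 15 other settings, 7 ended the GFP-negative call of Hoxa7 (up to 0.205, edgeR among them) and 4 each Hoxa5 call (up to 0.0746 and 0.126).

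In 4 genes only one population passed the test. Hoxc5, of cervicothoracic identity, averaged 40.9 ± 5.72 normalized counts with the SIX2 label against 121 ± 6.78 with the control label in GFP-negative cells (log2 −1.55 ± 0.24, adjusted p = 4.11e-04), and 78.3 ± 19.9 with SIX2 against 96.7 ± 18.9 with control in GFP-positive cells (−0.32 ± 0.24, 0.390; SD, n = 3). Hoxa3, which is needed for thymus and parathyroid, averaged 12.8 ± 3.09 with SIX2 against 39.0 ± 11.9 with control in GFP-negative (−1.52 ± 0.51, 0.0395) and 20.2 ± 7.31 with SIX2 against 21.1 ± 12.3 with control in GFP-positive cells (0.11 ± 0.51, 0.903), where the mean of log2 values and the mean count differ in sign. Hoxc9, which sets the thoracic motor neuron pattern, was called in GFP-positive cells alone: 166 ± 15.9 with SIX2 against 170.4 ± 10.1 with control in GFP-negative cells (−0.04 ± 0.19, 0.902) and 120.0 ± 29.7 with SIX2 against 203 ± 19.0 with control in GFP-positive cells (−0.78 ± 0.19, 0.00889). Hoxc11, given above, was the other. A difference of the label effect between populations (the interaction, GFP-positive minus GFP-negative) passed for 0 of 30 Hox genes and for 0 of 14580 genes in all (0.0%) in the main limma fit. Unadjusted p-values were under 0.05 for 4 Hox genes, with interactions of 1.23 ± 0.34 for Hoxc5 (adjusted p = 0.125), 1.64 ± 0.72 for Hoxa3 (0.274), 1.22 ± 0.50 for Hoxa11 (0.246) and −0.74 ± 0.27 for Hoxc9 (0.191). DESeq2 on the whole reads called 1, Hoxc5 (adjusted p = 0.0274), and edgeR none. Limma with library weights called 282 of all tested genes in the interaction and 0 Hox genes. With a trend on GC-rich stretches removed it called 3 of all tested genes and 0 Hox genes. The Hoxa3 call in GFP-negative cells was lost without any one of its 6 libraries (up to 0.134) and under 3 of 14 other settings (0.0765 at most), and the Hoxc9 call when reads were thinned to the shallowest library (0.0604).

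The remaining 13 tested genes were called in neither population. In groups 1 to 3 these were Hoxa2, Hoxb2, Hoxb3, Hoxb3os and Hoxd3os1, in groups 4 to 8 Hoxa4, Hoxa6, Hoxb4, Hoxb5os, Hoxb7 and Hoxd8, and in groups 9 to 13 Hoxc13 and Hoxd9. Among them Hoxb7 had means of 42.4 ± 4.70 normalized counts with SIX2 against 66.2 ± 24.1 with control in GFP-negative and 30.8 ± 19.0 with SIX2 against 62.7 ± 7.52 with control in GFP-positive cells (log2 −0.58 ± 0.47 and −1.27 ± 0.47, adjusted p = 0.401 and 0.0678). Hoxa4 had 20.1 ± 2.01 with SIX2 against 38.8 ± 6.58 with control in GFP-negative and 25.9 ± 13.4 with SIX2 against 35.8 ± 10.7 with control in GFP-positive cells (−0.91 ± 0.42 and −0.58 ± 0.42, 0.125 and 0.358). The abundant Hoxd8, a gene of the lower trunk, differed by 0.28 ± 0.28 and 0.03 ± 0.28. Its 95% intervals were −0.32 to 0.89 and −0.57 to 0.64, so changes within these intervals were not excluded. Its neighbour Hoxd9, of the posterior trunk and limb, averaged 45.5 ± 10.2 with SIX2 against 70.9 ± 17.3 with control in GFP-negative cells and 72.4 ± 17.8 with SIX2 against 60.7 ± 19.2 with control in GFP-positive cells, with log2 differences of opposite sign (−0.62 ± 0.30 and 0.27 ± 0.30) and neither called (0.145 and 0.576). Some of these genes were called lower under other settings. Library weights called Hoxd9 (−0.84, adjusted p = 0.00903), Hoxa4 (−0.87, 0.0308) and Hoxb3 (−1.77, 0.0172) in GFP-negative cells. In GFP-positive cells Hoxb5os was called with library weights (−1.96, 0.0368) and Hoxb7 with thinned reads (−1.31, 0.0482). In all, 26 of the 30 genes had the same sign in both populations, and the 4 that did not were Hoxa3, Hoxb2, Hoxb3os and Hoxd9.

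The antisense transcripts share exonic sequence with Hox genes, and since SMART-Seq2 libraries keep no strand, a read in the shared bases could come from either. Hoxa11os, which in the mouse limb bud is transcribed where Hoxa11 is kept silent, shares 800 bases with Hoxa11. It held 85.0, 96.2 and 72.2 normalized counts with the SIX2 label against 23.6, 27.7 and 27.2 with the control label in GFP-negative cells. GFP-positive cells had 84.0, 87.7 and 89.6 with SIX2 against 19.1, 13.8 and 19.4 with control. Its rise, by 1.65 ± 0.25 (adjusted p = 3.27e-04) and 2.27 ± 0.25 (3.38e-05) on the log2 scale, ran in the same direction as that of Hoxa11 and held without any single library. Hoxb3os shares 2250 bases with Hoxb3 and 953 with Hoxb2, genes of the hindbrain, and held 5.71, 25 and 28.3 with SIX2 against 12.9, 29.3 and 30.0 with control in GFP-negative cells. In GFP-positive cells the values were 17.9, 17.5 and 11.4 with SIX2 against 10.7, 34.3 and 0.844 with control. Values of Hoxb3 were 18.6, 3.95 and 12.0 with SIX2 against 21.4, 30.9 and 14.1 with control in GFP-negative cells. Values in GFP-positive cells were 1.79, 17.5 and 8.14 with SIX2 against 26.8, 17.2 and 24.5 with control. Those of Hoxb2 were 162, 179 and 240.0 with SIX2 against 193, 164 and 175 with control in GFP-negative cells. The GFP-positive values were 175, 175 and 57.0 with SIX2 against 109, 189.8 and 207 with control. The labels overlapped for all 3 in both populations, and none was called (adjusted p of 0.111 or more). Hoxb5os shares 100 bases with Hoxb5 and held 16.4, 18.4 and 9.02 with SIX2 against 30.0, 20.6 and 23.5 with control in GFP-negative cells. Values in GFP-positive cells were 17.9, 1.95 and 17.9 with SIX2 against 37.5, 26.0 and 24.5 with control, lower in every library of the SIX2 label without passing the test (0.403 and 0.0894). Hoxd3os1, which overlaps the untested Hoxd3 and Hoxd4 by 347 bases, held 38.6, 24.4 and 34.3 with SIX2 against 64.3, 40.4 and 35.6 with control in GFP-negative and 30.4, 35.1 and 27.7 with SIX2 against 45.9, 53.7 and 34.6 with control in GFP-positive cells (0.270 and 0.287). Sharing also occurs on the same strand: Hoxc5 and Hoxc10, which moved in opposite directions in GFP-negative cells, have 166 exonic bases in common.

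The 7 genes below the threshold for testing are given by their libraries alone. Hoxc12, of the tail end of its cluster, held 5.71, 5.27 and 8.42 normalized counts with the SIX2 label against 0, 2.38 and 0 with the control label in GFP-negative cells and 5.36, 1.95 and 6.51 with SIX2 against 0, 0.553 and 0 with control in GFP-positive cells. Hoxa13, which patterns hand and foot, held 10.00, 17.8 and 4.81 with SIX2 against 2.14, 0.793 and 0.938 with control in GFP-negative cells. Among GFP-positive cells the values were 7.15, 3.90 and 0 with SIX2 against 0.765, 0.553 and 1.69 with control. The SIX2 label was higher with no overlap for Hoxc12 in both populations and for Hoxa13 in GFP-negative cells, at levels of few reads. Hoxd10, a posterior limb gene, held 0.714, 23.1 and 4.21 with SIX2 against 2.14, 0 and 1.88 with control in GFP-negative cells. The GFP-positive values were 14.3, 9.74 and 1.63 with SIX2 against 0, 2.21 and 2.53 with control, with overlap in both. When the filter on low values was removed, Hoxc12 was called in both populations (adjusted p = 0.0188 and 0.0295) and none of the other 6 was. Hoxb8, of the thoracic trunk, held 0.714, 1.32 and 3.61 with SIX2 against 6.43, 5.55 and 3.75 with control in GFP-negative cells. Among GFP-positive cells the values were 1.79, 1.95 and 0 with SIX2 against 0, 1.11 and 10.1 with control, without overlap in GFP-negative cells alone. Hoxd3, a gene of the neck vertebrae, held 0.714, 3.29 and 0 with SIX2 against 6.43, 0 and 3.75 with control in GFP-negative cells. Its values in GFP-positive cells were 12.5, 7.79 and 0 with SIX2 against 4.59, 6.09 and 0 with control. Hoxd4, its neighbour, held 0.714, 0 and 0 with SIX2 against 4.28, 3.96 and 0 with control in GFP-negative cells. Its values in GFP-positive cells were 3.57, 1.95 and 1.63 with SIX2 against 1.53, 0 and 0 with control, without overlap in GFP-positive cells alone. Hoxb9 was at 0 in 9 of 12 libraries and at most 4.28 in the others.

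The shares of the position groups were also taken within each library. Over the 33 protein-coding Hox genes the summed level was 1109.9 to 1215 normalized counts per kb in GFP-negative cells labelled SIX2 against 1211 to 1315 with the control label, and 1036 to 1204 with SIX2 against 1219.8 to 1289 with control in GFP-positive cells. The share of paralogue groups 9 to 13 in that sum was 46.9 to 52.5% with SIX2 against 23.4 to 26.8% with control in GFP-negative and 47.7 to 51.3% with SIX2 against 25.1 to 28.6% with control in GFP-positive cells. Groups 4 to 8 made up 36.4 to 43.0% with SIX2 against 61.0 to 61.8% with control in GFP-negative and 37.0 to 43.5% with SIX2 against 56.8 to 60.9% with control in GFP-positive cells. Groups 1 to 3 held 10.1 to 12.0% with SIX2 against 12.2 to 14.8% with control in GFP-negative and 8.66 to 11.7% with SIX2 against 12.7 to 14.6% with control in GFP-positive cells. The tail end thus held a larger share in each of the 6 libraries labelled SIX2 than in any of the 6 labelled control, and groups 4 to 8 a smaller one. These shares are sums of the genes described above and are no further evidence for them.

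**Figure D4:**
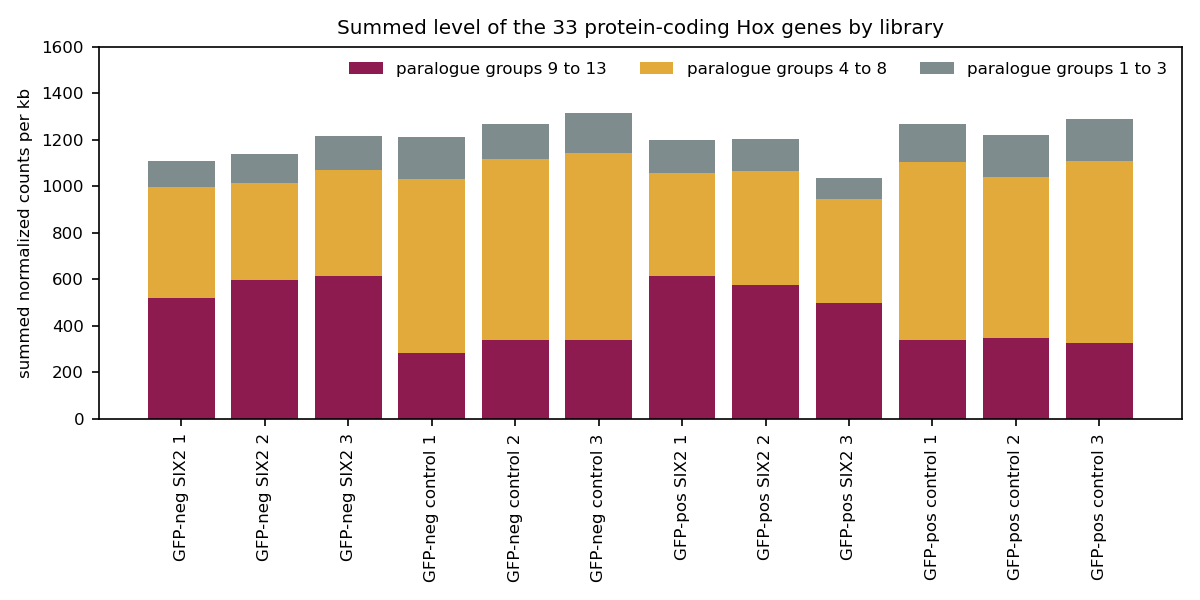
Summed level of the 33 protein-coding Hox genes in each of the 12 libraries, in normalized counts per kb, split into paralogue groups 9 to 13 (bottom), 4 to 8 (middle) and 1 to 3 (top). The bottom segment is taller in each library labelled SIX2 than in any labelled control, and the middle segment is shorter.

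Ratios of genes of the same cluster in the same library need no scaling between libraries. Each pair sets a gene called higher over one called lower, so the ratios restate those calls and are no further evidence for them. The per-kb ratio of Hoxc10 to Hoxc6 was 1.74 to 2.16 in GFP-negative cells labelled SIX2 against 0.275 to 0.304 with the control label, and 1.76 to 2.61 with SIX2 against 0.289 to 0.433 with control in GFP-positive cells. Hoxa10 to Hoxa7 gave 1.51 to 1.91 with SIX2 against 0.485 to 0.702 with control in GFP-negative and 1.47 to 1.52 with SIX2 against 0.534 to 0.734 with control in GFP-positive cells. Hoxa11 to Hoxa5 gave 2.43 to 3.76 with SIX2 against 0.502 to 0.614 with control in GFP-negative and 4.10 to 6.16 with SIX2 against 0.239 to 0.529 with control in GFP-positive cells. Each ratio was above 1 in all 6 libraries labelled SIX2 and below 1 in all 6 labelled control. Depth ran in opposite directions in the populations, with 34048869 to 40182810 against 12438885 to 33151990 reads in GFP-negative and 12632428 to 15492340 against 31295165 to 47299937 in GFP-positive cells.

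The comparison of GFP-positive with GFP-negative cells addresses whether cells sorted by the Pax3 reporter differ in their Hox pattern. No Hox gene passed the test under either label, where 0.192% of all tested genes passed with the SIX2 label and 3.48% with the control label. In the SIX2 groups 4 Hox genes had an unadjusted p under 0.05 in limma: Hoxc5 (mean 78.3 in GFP-positive against 40.9 normalized counts in GFP-negative cells, log2 0.90 ± 0.24), Hoxd9 (72.4 against 45.5, 0.66 ± 0.30), Hoxc9 (120.0 against 166, −0.49 ± 0.19) and Hoxc8 (28.9 against 46.9, −0.72 ± 0.24). In the control groups there were also 4: Hoxa7 (mean 456 in GFP-positive against 366 in GFP-negative cells, 0.30 ± 0.13), Hoxa11 (34.3 against 71.2, −1.11 ± 0.36), Hoxa11os (17.5 against 26.2, −0.57 ± 0.25) and Hoxc8 (78.9 against 129.6, −0.71 ± 0.24). The smallest adjusted p was 0.137 (Hoxc5) with the SIX2 label and 0.102 (Hoxa11) with the control label. DESeq2 on the whole reads called Hoxc5 with the SIX2 label (adjusted p = 0.0393). With the control label it called Hoxc8 (0.0366) and Hoxa11 (0.0443), limma with library weights called Hoxc8 (0.0369), and edgeR called none under either label. Median log2 differences over the 30 genes were −0.05 and −0.07, and the populations' libraries did not overlap for 4 and 8 of 30 genes, where 17.2% and 27.2% of all tested genes did not.

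**Figure D5:**
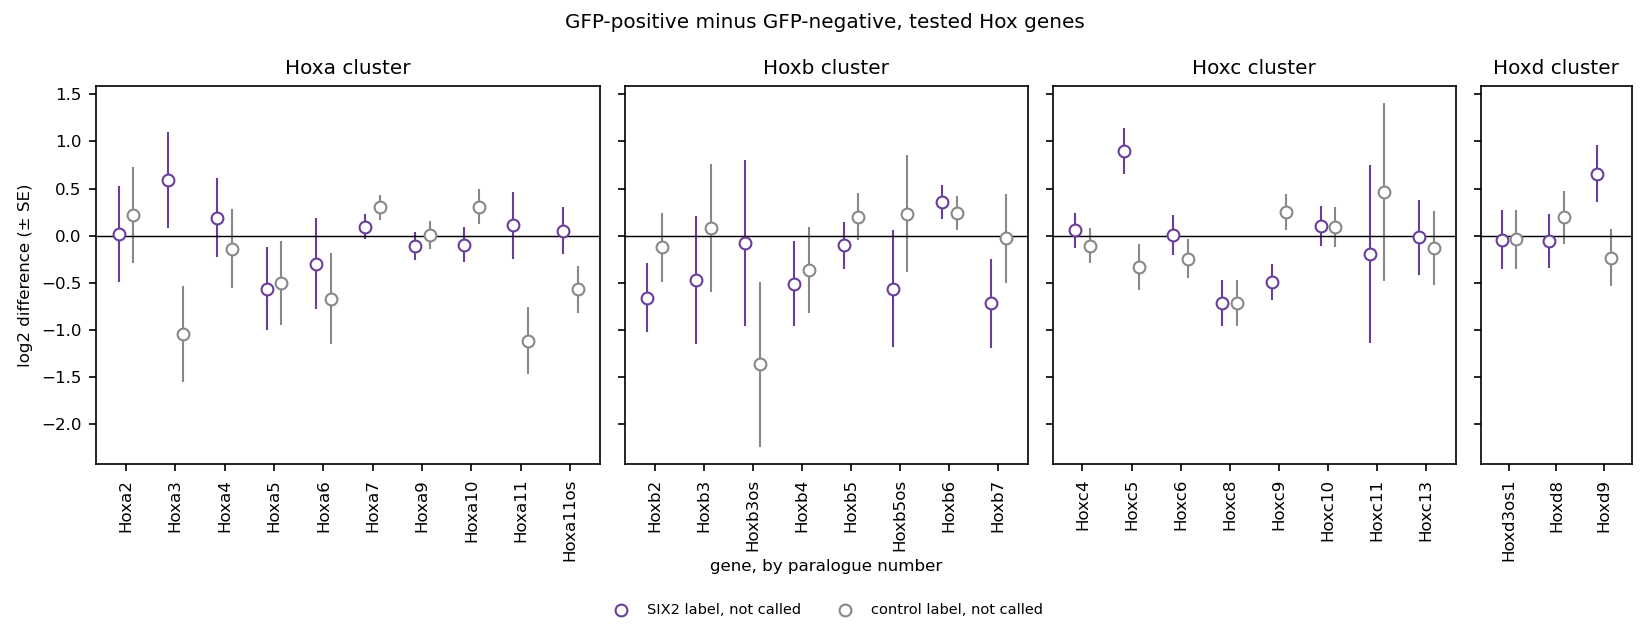
Log2 difference between GFP-positive and GFP-negative cells (± SE, 3 libraries a group) of tested Hox genes, by cluster and paralogue number, with the SIX2 label (purple) and the control label (grey). No point is filled, since none passed the test.

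Of all tested genes, 27.9% were called in GFP-negative and 23.3% in GFP-positive cells, and the counts of the lists that follow stand beside these shares. Of the 9 cofactors of the TALE class (Pbx, Meis and Pknox), with which Hox proteins bind DNA, 2 rose and 1 fell in GFP-negative cells and 1 rose and 1 fell in GFP-positive cells. Meis3 averaged 241 ± 19.6 normalized counts with SIX2 against 161 ± 17.4 with control in GFP-negative cells (log2 0.58 ± 0.19, adjusted p = 0.0372) and 230.0 ± 50.5 with SIX2 against 126 ± 25.3 with control in GFP-positive cells (0.87 ± 0.19, 0.00534; SD, n = 3). Meis2, by contrast, was lower, at 186 ± 8.34 with SIX2 against 284 ± 49.6 with control in GFP-negative (−0.59 ± 0.16, 0.0153) and 165 ± 25.6 with SIX2 against 329 ± 36.3 with control in GFP-positive cells (−0.998 ± 0.16, 6.70e-04). Of 28 Polycomb genes, whose complexes keep silent Hox genes silent, 2 rose and 3 fell in GFP-negative and 2 rose and 1 fell in GFP-positive cells. Those named by the smallest p in each direction were Jarid2 (0.64), Aebp2 (0.56), Pcgf3 (−0.34) and Scmh1 (−0.48) in GFP-negative cells, and Phc2 (0.64), Ezh2 (0.54) and Scmh1 (−0.63) in GFP-positive cells, all as log2 differences. Of 13 Trithorax group members and H3K27 demethylases, which maintain or open active Hox genes, 2 rose and 1 fell in each population: Ash1l (0.32), Kmt2d (0.29) and Psip1 (−0.54) in GFP-negative, and Wdr5 (0.30), Men1 (0.39) and Kdm6b (−0.65) in GFP-positive cells. Median log2 differences of these 3 lists lay between −0.13 and 0.24, where the medians of all genes were 0.00 and −0.01.

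Retinoic acid is a signal that sets Hox expression in the embryo. Of 22 listed genes of its pathway and of the Cdx and Gdf11 inputs, 17 were tested, with 3 higher and 5 lower in GFP-negative and 3 higher and 4 lower in GFP-positive cells, where 27.9% and 23.3% of all tested genes were called. Aldh1a2, which makes retinoic acid, held 25, 36.9 and 54.1 normalized counts with the SIX2 label against 0, 1.59 and 0 with the control label in GFP-negative cells. GFP-positive cells had 53.6, 46.8 and 44.0 with SIX2 against 2.29, 1.11 and 2.53 with control. It was near 0 in every control library and reached the threshold for testing only through the libraries labelled SIX2, so it had to differ to be tested. Without it, 2 of the list were higher in each population. Its log2 differences of 4.79 ± 0.55 (adjusted p = 4.95e-05) and 4.07 ± 0.55 (1.75e-04) rest on a pseudocount of 1. Crabp2, a retinoic acid binding protein, averaged 129 ± 11.6 with SIX2 against 324 ± 8.52 with control in GFP-negative (−1.33 ± 0.14, 3.22e-05) and 157 ± 26.8 with SIX2 against 402 ± 12.6 with control in GFP-positive cells (−1.36 ± 0.14, 2.73e-05). The receptor Rxrg was lower in both (−0.70 and −0.76) and Rxra higher in GFP-negative cells (0.73), all passing. Among factors of limb type, 3 of 5 were in the table and 2 were tested, with 0 called in GFP-negative cells and 1, Tbx4, in GFP-positive cells. Median log2 differences of the 2 tested were 0.58 and 0.31. Tbx4, the hindlimb factor, averaged 414 ± 64.7 normalized counts with SIX2 against 314 ± 41.4 with control in GFP-negative cells (0.39 ± 0.17, 0.111, not called) and 501 ± 76.8 with SIX2 against 313 ± 64.1 with control in GFP-positive cells (0.68 ± 0.17, 0.0120). Pitx1, another hindlimb factor, was at 0 in all libraries but 1.

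Inside the clusters lay 9 further genes of the table that are outside this naming, of which 5 were tested. Hotair, a noncoding RNA transcribed from the tail end of the Hoxc cluster between Hoxc11 and Hoxc12, held 7.14, 46.1 and 23.5 normalized counts with the SIX2 label against 2.14, 1.59 and 2.81 with the control label in GFP-negative cells. In GFP-positive cells it held 21.4, 33.1 and 27.7 with SIX2 against 3.82, 8.30 and 1.69 with control. It reached the threshold for testing only through libraries labelled SIX2, so it had to differ to be tested. It rose in both, by 2.75 ± 0.66 (adjusted p = 0.00748) and 2.50 ± 0.66 (0.0149). Hoxaas2, an antisense RNA that shares 503 exonic bases with Hoxa3, fell, with means of 163 ± 5.23 with SIX2 against 265 ± 33.0 with control in GFP-negative (−0.69 ± 0.16, 0.00487) and 168 ± 5.00 with SIX2 against 383 ± 78.6 with control in GFP-positive cells (−1.17 ± 0.16, 1.52e-04). Gm15050, an annotated antisense gene of the Hoxa cluster, passed in GFP-positive cells (−1.24 ± 0.37, 0.0276, against −0.67 ± 0.37, 0.210 in GFP-negative cells). Of the 24 tested protein-coding genes nearest to the clusters, 3 on each side of each, 3 rose and 5 fell in GFP-negative cells and none rose and 7 fell in GFP-positive cells, where 27.9% and 23.3% of all tested genes were called. Skap2, beside the Hoxa cluster, fell in both (−0.78 ± 0.08, 3.35e-05, and −0.91 ± 0.08, 1.01e-05), as did Calcoco1, beside the Hoxc cluster (−0.59 and −0.51), while Cbx3 (0.87) and Hnrnpa1 (0.44) rose in GFP-negative cells. The median over these flanking genes was −0.02 and −0.10.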

How the data were processed

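Per the submitters' processing notes, the tools were STAR 2.7.11a, RSEM 1.3.3 and DESeq2 1.42.0, with FastQC 0.12.1 and MultiQC 1.19, and the build was GRCm38. Their settings are not given in the sources used here. The deposited signal is a table of normalized counts, reads per gene divided by 1 size factor per library. All values came out as whole reads within 0.0001 of a read.

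Gene names, positions and exon lengths came from GENCODE M21, in which 23550 identifiers (99.8%) matched. Genes with at least 10 in at least 3 of the 12 libraries were tested by fitting the 4 group means to log2(normalized count + 1) in limma 3.58.1 with an intensity trend, under R 4.3.3. Differences are therefore on the log2(value + 1) scale, which understates changes of low genes. Benjamini-Hochberg adjustment ran over all 14580 tested genes in each comparison, with a threshold of 0.05. SE and adjusted p in the text are from this fit, and n is 3 libraries a group. edgeR 4.0.16 and DESeq2 on the whole reads were alternatives.

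The Hox genes, the lists of other genes and the tests were chosen with earlier results of these data known. Values in every library are given for Hox genes that passed in both sorted populations with 1 sign of the plasmid-label difference and for tested antisense transcripts with their partners. From each other list, up to 2 called members per direction with the smallest p are named, or the 1 with the smallest p where none is called. Other single genes named were chosen after their values were seen. Counts cover all members, but some single members are not reported here. Replicates of a group differed beyond counting noise (chi-square per degree of freedom 7.36 to 48.7), so each library counted as 1 sample.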

Additional observations from a re-analysis of the deposited data

How the results depend on the processing

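The numbers of Hox genes called stayed within 1.5 times those reported in both plasmid-label comparisons under every setting other than leaving out a single library, and no named gene reversed. These settings were pseudocounts of 0.5 and 5, no filter or one of 50, TMM and quantile scaling, a fit of the compared libraries only, library weights, thinned reads, edgeR, DESeq2 and removal of GC trends. The GC trends, taken from transcripts, were chosen after seeing the data, and the planned correction on merged exons was not run. Leaving out a library gave 9 to 16 calls in GFP-negative and 11 to 14 in GFP-positive cells. Between populations, where none was called, library weights called 1 and DESeq2 2 with the control label, DESeq2 called 1 with the SIX2 label, and DESeq2 called 1 in the interaction; the cause was not tested. Without any one library these comparisons kept 0 calls. With the replicate number as a block, 13 Hox genes were called in GFP-negative cells (6 higher, 7 lower) and 14 in GFP-positive cells (6 higher, 8 lower), and 0 in the other comparisons. Same-numbered libraries correlated at −0.203 to 0.0527 in their deviations over 18 pairs, and others at −0.0669 to 0.169 over 36 pairs. Each deviation is from a mean of only 3 libraries, so these correlations cannot decide whether equal numbers share a culture or sort. Hoxa9, Hoxa11os, Hoxc6, Hoxc8 and Hoxc10 stayed called in both populations under every setting and without any one library. A single read is worth up to 2.14 normalized counts, so Hox genes at a few counts (Hoxa13, Hoxb8, Hoxb9, Hoxc12, Hoxd3, Hoxd4 and Hoxd10) rest on few reads.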
